A study of Homo sapiens with 36 samples.

Results

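Cells make cholesterol and fatty acids from the same acetyl-CoA, by separate routes whose genes are switched on by the sterol regulatory element binding proteins (SREBPs). SREBP-2, from SREBF2, is known mainly for the genes of cholesterol synthesis, and SREBP-1, from SREBF1, mainly for those of fatty acid synthesis. Both are held in the endoplasmic reticulum by SCAP and the INSIG proteins while sterols are plentiful, and are carried to the Golgi, cut and released to the nucleus when sterols run low. The 33 genes described here are enzymes and regulators of these routes, chosen by name: 20 form the sterol branch and 13 the fatty acid branch, out of 60662 gene IDs in the deposited table. All 33 were found there once, and all 33 passed the low-count filter of every fit.

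The libraries came from A549, a human lung adenocarcinoma cell line, as poly(A)-selected RNA in 36 libraries of 12 groups with 3 biological replicates each. Cells carried a non-targeting siRNA (siControl, called wild type in the labels), an siRNA against ATF4 or an siRNA against ATF6, each at 100 nM, and were then kept in 25 mM or 0 mM glucose for 6 h or 16 h. ATF4 and ATF6 are transcription factors of the amino acid and endoplasmic reticulum stress responses. All groups were transfected, and both media held dialysed serum and glutamine. Silencing lowers but does not remove a transcript, and all results are from 1 cell line.

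Of the 36 libraries, 35 held 39.4 to 78.7 M expected counts, and the glucose-free siATF4 replicate 3 of 6 h held 2.87 M, with 15 of the 33 genes at 0. That library was left out of the fits at 6 h and across times. Epithelial keratins were abundant (KRT8 1370 to 5265 normalised CPM), while the epithelial markers EPCAM (1.82 to 7.85 CPM) and CDH1 (7.47 to 35.9 CPM) were far lower. The lung alveolar markers NKX2-1, SFTPC, SFTPB and SFTPA1 summed to at most 0.235 CPM, so the alveolar origin of the line was not visible. Leukocyte, endothelial and fibroblast markers summed to at most 8.24, 2.11 and 41.8 CPM; 1 of 4, 0 of 3 and 1 of 4 of them averaged 1 CPM or more, and PTPRC and CD3E stayed at or below 0.0396 CPM. CD14 and COL1A1, the 2 that did, fell without glucose in siControl cells at 16 h (6.04 to 2.31 and 20.1 to 7.79 CPM), and their part in the results below was not tested. At 16 h, ATF4 in 25 mM glucose was 177, 144 and 142 CPM with siControl and 131, 135 and 116 CPM with siATF4. The libraries do not overlap, but the difference of -0.28 ± 0.14 (log2, SE) did not pass (adjusted p = 0.76). In 0 mM glucose ATF4 fell from 450 to 184 CPM with siATF4 (log2 fold change -1.29 ± 0.14, adjusted p = 0.000186). ATF6 fell by 2.36 on the log2 scale with siATF6 in 25 mM and by 2.58 in 0 mM glucose at 16 h (adjusted p = 1.79e-05 and 4.85e-06).

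Start-site sequences are shown for the genes the results turn on, since SREBPs are known to bind a sterol regulatory element beside sites for NF-Y and Sp1. RefSeq windows on GRCh38.p14 were found for 29 of the 33 genes; ACAT2, FASN, FDFT1 and SQLE had none. Where a gene had several windows, the one used was that whose bases after the start occur in a GENCODE v29 transcript, and among those the nearest to the gene's 5′ end. In the 250 bases before the start, both strands were searched for TCACNCCAC (sterol regulatory element), CCAAT (NF-Y), GGGCGG (Sp1), CACGTG (E-box) and TGATGNAA (the C/EBP-ATF element bound by ATF4). The sequences below run 5′ to 3′ on the gene's strand, stop before the first annotated exon of the gene or UTR, and carry in capitals the matches to the first 4 of these motifs.
SREBF2 promoter, chr22:41832855-41833078, plus strand: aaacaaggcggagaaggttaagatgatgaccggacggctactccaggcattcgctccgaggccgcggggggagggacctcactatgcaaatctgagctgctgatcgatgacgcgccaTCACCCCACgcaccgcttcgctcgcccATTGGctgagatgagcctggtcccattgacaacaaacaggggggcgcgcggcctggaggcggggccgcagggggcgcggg
STARD4 promoter, chr5:111512591-111512785, minus strand: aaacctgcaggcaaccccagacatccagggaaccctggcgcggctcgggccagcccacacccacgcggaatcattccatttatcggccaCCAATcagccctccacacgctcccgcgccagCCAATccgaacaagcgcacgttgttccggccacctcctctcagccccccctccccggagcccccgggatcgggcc
HSD17B7 promoter, chr1:162790452-162790701, plus strand: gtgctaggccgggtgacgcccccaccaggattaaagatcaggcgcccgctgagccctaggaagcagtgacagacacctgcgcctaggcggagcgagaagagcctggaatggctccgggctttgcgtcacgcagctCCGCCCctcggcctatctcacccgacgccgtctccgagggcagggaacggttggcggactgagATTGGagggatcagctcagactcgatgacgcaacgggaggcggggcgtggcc
MSMO1 promoter, chr4:165327419-165327622, plus strand: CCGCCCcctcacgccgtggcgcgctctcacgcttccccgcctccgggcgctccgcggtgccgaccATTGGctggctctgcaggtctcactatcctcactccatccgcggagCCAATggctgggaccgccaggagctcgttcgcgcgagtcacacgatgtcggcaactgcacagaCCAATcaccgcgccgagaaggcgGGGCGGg
ACLY promoter, chr17:41919023-41919272, minus strand: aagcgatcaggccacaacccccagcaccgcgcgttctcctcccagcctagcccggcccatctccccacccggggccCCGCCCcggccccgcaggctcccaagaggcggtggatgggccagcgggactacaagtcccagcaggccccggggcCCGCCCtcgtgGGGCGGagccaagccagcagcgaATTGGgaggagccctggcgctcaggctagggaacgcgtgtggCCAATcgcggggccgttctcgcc
FADS2 promoter, chr11:61816154-61816255, plus strand: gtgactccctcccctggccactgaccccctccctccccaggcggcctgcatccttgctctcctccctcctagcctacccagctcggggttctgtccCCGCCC

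The SREBF2 window held TCACCCCAC, starting 133 bases before the start site, and an NF-Y match on the opposite strand, starting 106 bases before it. SREBF2 was the only one of the 29 genes whose window held the sterol regulatory element letters, which occur in 0.883% of the 35116 windows in the RefSeq table. NF-Y letters were in 20 of the 29 windows (69.0%; 32.0% of all windows), in 14 of 17 sterol genes and 6 of 12 fatty acid genes. MVK and NSDHL held 5 NF-Y matches each and MSMO1 held 4 in the full 250 bases. Sp1 letters were in 27 of 29 windows (93.1%; 42.6% of all), E-box letters in 4 (13.8%; 6.34% of all) and the C/EBP-ATF letters in 0 (3.14% of all). A match describes the letters only, and the shares were not tested. The FADS2 and ACLY windows lie inside the annotated genes, whose 5′ ends are at chr11:61792980 and chr17:41930542. The FADS2 window also overlaps annotated exons of FADS1 and FADS2. Which start sites these cells use was not tested.

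Expressed per length in siControl cells in 25 mM glucose at 16 h, the fatty acid branch held the most abundant transcripts. ACLY (ATP citrate lyase, which makes cytosolic acetyl-CoA) stood at 214 ± 13.9 CPM per kb (SD, n = 3) and SCD (stearoyl-CoA desaturase) at 214 ± 25.1, a difference within their spread. FADS2 (delta-6 desaturase) followed at 177 ± 16.8 CPM per kb and FASN (fatty acid synthase) at 111 ± 11.1. The most abundant sterol transcript per length was FDPS (farnesyl diphosphate synthase), ranked 6, at 95.1 ± 11.4 CPM per kb, within the spread of SREBF1 (96.5 ± 10.7) and FADS1 (94.0 ± 23.4). At the low end STARD4, a carrier of cholesterol between membranes, stood at 7.74 ± 1.28 CPM per kb and GPAM, the mitochondrial enzyme that begins glycerolipid synthesis, at 3.58 ± 0.364. All later levels are CPM normalised by edgeR's TMM factors within a time point, and are compared only within a gene.

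After 16 h without glucose the fatty acid branch stood lower in all 3 siRNA arms, and the sterol branch held members that rose beside members that fell. The level of a branch in a library is the mean over its members of log2 normalised CPM, relative to the mean of the siControl libraries in 25 mM glucose of the same time. In siControl cells at 16 h the fatty acid branch was 0.14, -0.03 and -0.11 in the 3 libraries of 25 mM and -0.38, -0.31 and -0.35 in those of 0 mM, and these do not overlap. The sterol branch was 0.28, -0.10 and -0.18 in 25 mM and 0.18, -0.06 and -0.03 in 0 mM, and these overlap. The sterol minus fatty acid level was therefore 0.37 ± 0.17 (SD, n = 3) in 0 mM against a mean of 0 with an SD of 0.12 in 25 mM.

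**Figure D1:**
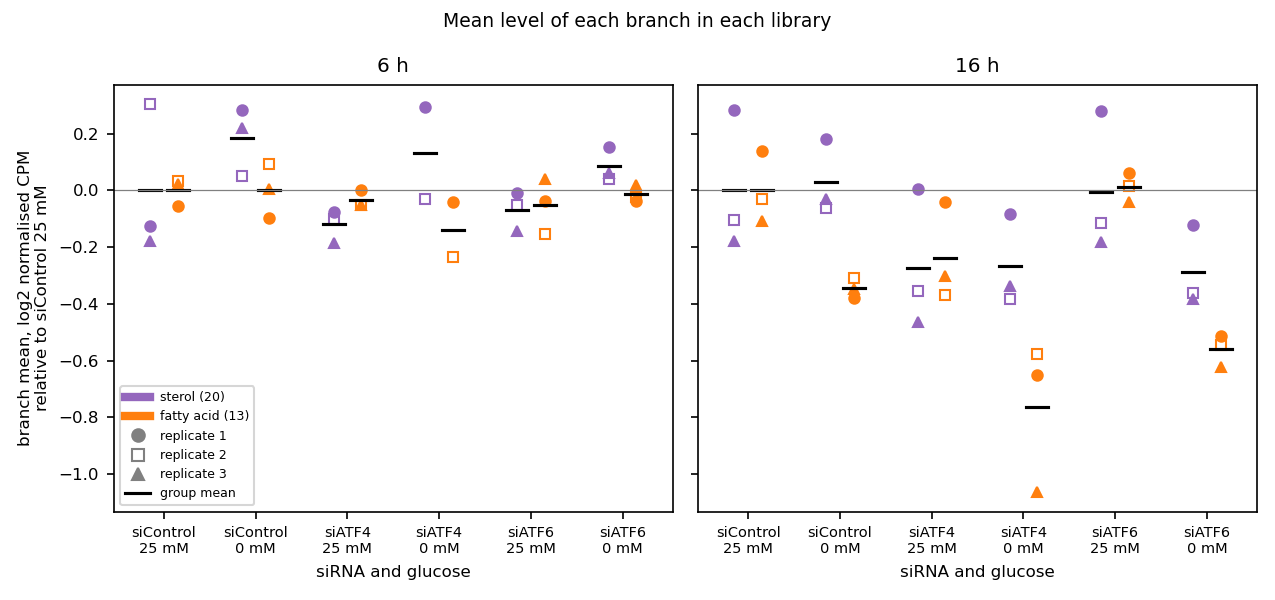
Mean log2 normalised CPM of the 20 sterol genes (purple) and 13 fatty acid genes (orange) in each library, relative to siControl in 25 mM glucose of the same time (y axis), by siRNA and glucose (x axis) at 6 h and 16 h. Points are libraries, marked by replicate number, and bars are group means. At 16 h all glucose-free fatty acid points lie below those of 25 mM within the same siRNA.

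The same order held with both silenced genes at 16 h. With siATF4 the fatty acid branch stood at -0.24 ± 0.17 in 25 mM and -0.76 ± 0.26 in 0 mM glucose, and the sterol branch at -0.27 ± 0.25 and -0.27 ± 0.16. With siATF6 the fatty acid branch stood at 0.01 ± 0.05 and -0.56 ± 0.06, and the sterol branch at -0.01 ± 0.25 and -0.29 ± 0.15. Within each siRNA the fatty acid values of the 2 media did not overlap. The lowest fatty acid value, -1.06, came from the glucose-free siATF4 replicate 3, whose TMM factor of 0.796 was also the lowest of the 18 libraries (the next was 0.941); the part of that library's composition in its values was not tested.

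In siControl cells 8 of the 33 genes passed edgeR's quasi-likelihood test for 0 against 25 mM glucose at 16 h, where 29.0% of the 18013 genes tested passed. Of the sterol branch 2 genes rose and 2 fell, and of the fatty acid branch 1 rose and 3 fell, beside 14.6% of all genes that rose and 14.5% that fell. The share called, 8 of 33, is near the background. Same-numbered siControl libraries of the 2 media deviated together (correlations over genes of 0.51, 0.25 and 0.30), and with the number as a block 16 of the 33 passed, beside 37.4% of all genes: 4 sterol genes rose and 4 fell, and 1 fatty acid gene rose and 7 fell. The median log2 fold change was -0.00 over the sterol branch, -0.41 over the fatty acid branch and 0.01 over all genes tested. Leaving out any 1 of the 6 libraries left 7 or 8 calls, where 21.0% to 23.5% of all genes passed.

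The sterol genes that rose without the block were a carrier and a late enzyme. STARD4 (ENSG00000164211.13, chr5:111496033-111512590) stood at 30.1, 22.6 and 23.1 CPM in 25 mM and 90.5, 74.9 and 72.5 CPM in 0 mM glucose. Every glucose-free library was above every library of 25 mM, a 3.14-fold rise (log2 fold change 1.65 ± 0.31, adjusted p = 0.00073). HSD17B7 (ENSG00000132196.14, chr1:162790702-162812817), the 3-keto reductase of cholesterol synthesis, stood at 12.5, 12.8 and 11.5 CPM and at 19.7, 17.5 and 18.7 CPM (0.60 ± 0.13, adjusted p = 0.0026). Its pseudogene HSD17B7P2 averaged 0.912 CPM over all libraries and rose too (1.57 ± 0.29, adjusted p = 0.00063), so reads shared by the pair may be divided between them.

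The 2 sterol genes that fell without the block act early in the route. ACAT2 (ENSG00000120437.9, chr6:159762045-159779112), the thiolase that joins acetyl-CoA units, went from 44.2, 38.8 and 35.5 CPM to 20.4, 24.7 and 20.8 CPM (-0.85 ± 0.16, adjusted p = 0.0007). MVK (ENSG00000110921.14, chr12:109573255-109598125), mevalonate kinase, went from 36.9, 31.9 and 25.6 CPM to 17.9, 18.3 and 18.9 CPM (-0.78 ± 0.21, adjusted p = 0.0097). In both genes the groups did not overlap. FDPS, next by p, stood at 125, 103 and 102 CPM and at 87.6, 85.7 and 85.3 CPM, without overlap, and did not pass (-0.35 ± 0.17, adjusted p = 0.13). By role and without the block, 0 of 7 mevalonate and isoprenoid enzymes rose and 2 fell. Of 9 enzymes from squalene to cholesterol 1 rose and 0 fell, beside 14.6% of all genes that rose and 14.5% that fell. With the block LSS and FDFT1 of these 9 fell too, and MSMO1 and SC5D rose.

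The libraries were not stranded, so reads of genes that overlap on opposite strands cannot be told apart. ACAT2 shares exon positions with TCP1 (270 CPM on average, 34.3 for ACAT2), for which the same comparison gave -0.31 ± 0.14 (adjusted p = 0.11), and with SOD2. MVK shares them with MMAB (-0.01 ± 0.18, adjusted p = 0.97), FADS2 with FADS1 and with FEN1 on the same strand, STARD4 with STARD4-AS1 (0.18 ± 0.50, adjusted p = 0.83) and SREBF2 with SREBF2-AS1 (1.78 CPM on average, -0.68 ± 0.25, adjusted p = 0.049). FEN1, a replication nuclease, averaged 84.1 CPM and fell by 1.98 on the log2 scale (adjusted p = 5.11e-07), and its part in the FADS2 value was not tested.

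The fatty acid genes that fell cover the supply of acetyl-CoA, chain synthesis and desaturation. FADS2 (ENSG00000134824.14, chr11:61792980-61867354) stood at 557, 512 and 460 CPM in 25 mM and 242, 250 and 264 CPM in 0 mM glucose (-1.01 ± 0.11, adjusted p = 5.3e-06). FASN (ENSG00000169710.9, chr17:82078338-82098294) stood at 831, 771 and 680 CPM and at 376, 426 and 451 CPM (-0.87 ± 0.11, adjusted p = 3.4e-05). ACLY (ENSG00000131473.17, chr17:41866917-41930542) stood at 938, 874 and 825 CPM and at 463, 515 and 516 CPM (-0.82 ± 0.17, adjusted p = 0.0015). The 3 genes were each lower in every glucose-free library, by 2.02-fold, 1.82-fold and 1.77-fold.

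ACACA (acetyl-CoA carboxylase 1), which commits acetyl-CoA to chain synthesis, stood at 176, 176 and 152 CPM and at 92.5, 130 and 116 CPM, without overlap, and was just outside the threshold (-0.57 ± 0.21, adjusted p = 0.051). ME1 (ENSG00000065833.9, chr6:83210402-83431051), malic enzyme, a source of NADPH, moved against the others: 121, 133 and 133 CPM in 25 mM and 146, 165 and 152 CPM in 0 mM glucose (0.26 ± 0.09, adjusted p = 0.049). ME1 lost its call when any 1 of the 6 libraries was left out, and the other 7 genes kept theirs. SCD stood at 1255, 1112 and 992 CPM and at 862, 1158 and 1045 CPM, which overlap (-0.13 ± 0.20, adjusted p = 0.66).

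The other 18 genes did not pass in siControl cells at 16 h without the block. With it MSMO1 (80.8, 46.6 and 44.8 CPM in 25 mM and 105, 66.6 and 67.3 CPM in 0 mM glucose, higher within each number) passed at 0.49 ± 0.10 (adjusted p = 0.00095), SC5D at 0.30, LSS at -0.35, FDFT1 at -0.28, FADS1 at -0.43, ACSS2 at -0.41 and GPAM at -0.50, as did ACACA at -0.57. Unblocked, the 12 sterol genes among them ran from -0.39 ± 0.22 for LSS (lanosterol synthase, 63.7 to 48.6 CPM, without overlap) to 0.47 ± 0.32 for MSMO1 (sterol C4-methyl oxidase, 57.4 to 79.6 CPM, with overlap). HMGCS1, PMVK, MVD, IDI1, FDFT1, SQLE, CYP51A1, NSDHL, SC5D and DHCR7 lay between them, each with overlapping libraries. Of the 6 fatty acid genes, GPAM (-0.50 ± 0.19), FADS1 (delta-5 desaturase, -0.45 ± 0.21) and ACSS2 (-0.41 ± 0.16) had no overlap between the media. The elongases ELOVL5 (0.20 ± 0.22) and ELOVL6 (-0.04 ± 0.23) and the acyl-CoA synthetase ACSL3 (0.04 ± 0.14) overlapped. The share of all genes without overlap was not computed, and differences between genes were not tested.

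The regulators themselves did not pass. SREBF2 stood at 137, 121 and 111 CPM in 25 mM and 129, 115 and 121 CPM in 0 mM glucose (-0.01 ± 0.14, adjusted p = 0.96). SREBF1 stood at 280, 343 and 290 CPM and at 194, 326 and 280 CPM (-0.19 ± 0.18, adjusted p = 0.47). SCAP stood at 79.5, 84.1 and 75.5 CPM and at 74.9, 81.4 and 83.7 CPM (0.01 ± 0.09, adjusted p = 0.97). INSIG1, which retains SCAP and is itself a known SREBP target, stood at 91.6, 48.7 and 46.0 CPM and at 117, 52.7 and 54.8 CPM (0.27 ± 0.51, adjusted p = 0.74). In all 4 genes the groups overlap. INSIG1 was higher in 0 mM glucose within each replicate number, and with the number as a block it did not pass either (0.24 ± 0.15, adjusted p = 0.22).

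**Figure D2:**
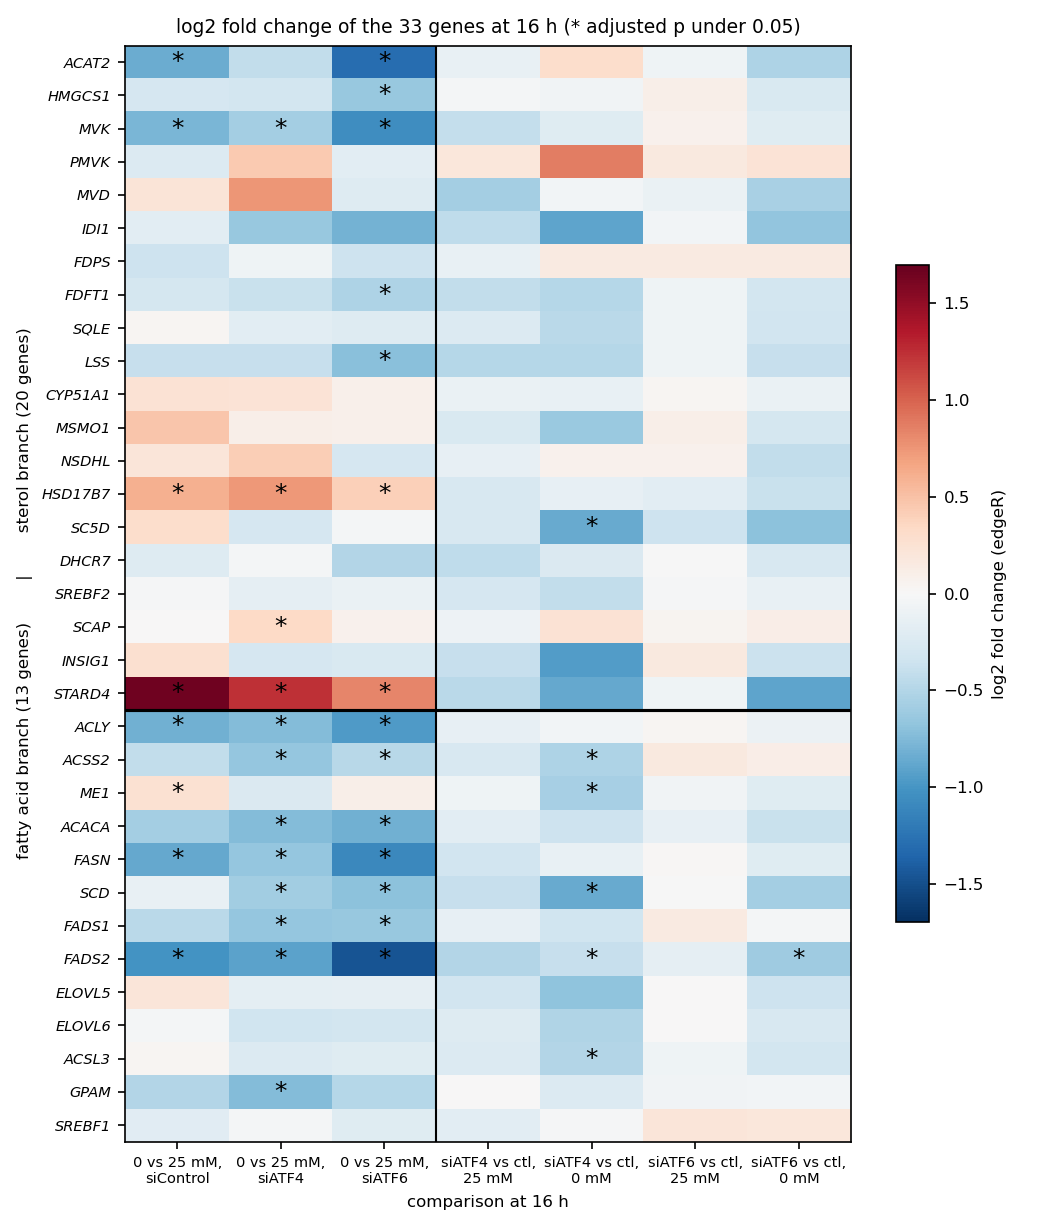
Log2 fold change (colour) of each of the 33 genes (rows) in 7 comparisons at 16 h (columns): 0 against 25 mM glucose with each siRNA, and each silenced gene against siControl in each medium. Asterisks mark adjusted p under 0.05. STARD4 and HSD17B7 are red and FADS2, FASN, ACLY and MVK blue, all with asterisks, in the 3 glucose columns.

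With siATF4, 12 of the 33 genes passed for 0 against 25 mM glucose at 16 h, beside 29.1% of all genes (14.9% up, 14.2% down). The fatty acid branch held 8 genes that fell and 0 that rose, with a median of -0.65, and the sterol branch 3 that rose and 1 that fell, with a median of -0.11; the median over all genes was -0.01. FADS2 went from 400, 371 and 314 CPM to 188, 183 and 205 CPM (-0.91 ± 0.11, adjusted p = 2.3e-05) and FASN from 601, 601 and 612 CPM to 375, 441 and 329 CPM (-0.66 ± 0.11, adjusted p = 0.00048). The others that fell were GPAM (-0.74), ACACA (-0.74), ACLY (-0.73), ACSS2 (-0.66), which makes acetyl-CoA from acetate, FADS1 (-0.65), SCD (-0.60) and, of the sterol branch, MVK (-0.58). STARD4 rose from 25.6, 13.4 and 16.2 CPM to 60.3, 47.7 and 22.3 CPM (1.24 ± 0.30, adjusted p = 0.0067), with an overlap through replicate 3. HSD17B7 rose by 0.74 ± 0.13, and SCAP rose from 69.5, 82.7 and 72.7 CPM to 94.1, 87.6 and 103 CPM (0.34 ± 0.09, adjusted p = 0.011).

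These counts with siATF4 moved with single libraries. Without the glucose-free replicate 3, where 27.0% of genes passed, 10 of the 33 passed: 3 sterol genes rose (STARD4, HSD17B7, SCAP), 2 fell (ACAT2, MVK), and 5 fatty acid genes fell (FADS2, FASN, ACLY, ACSS2, GPAM). Without replicate 1 of 25 mM glucose 6 passed, beside 20.2% of all genes. FADS2, FASN, ACLY, ACSS2, STARD4 and HSD17B7 passed in each of the 6 fits that left out 1 library.

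With siATF6, 14 of the 33 genes passed for the same comparison, beside 33.5% of all genes (15.6% up, 17.9% down). Of the sterol branch 2 rose and 5 fell, with a median of -0.24, and of the fatty acid branch 0 rose and 7 fell, with a median of -0.49; the median over all genes was -0.03. FADS2 went from 516, 439 and 417 CPM to 162, 171 and 165 CPM (-1.46 ± 0.11, adjusted p = 1.2e-07), ACAT2 from 43.5, 34.9 and 34.2 CPM to 15.7, 15 and 15.3 CPM (-1.29 ± 0.16, adjusted p = 1.4e-05) and FASN from 787, 803 and 724 CPM to 355, 380 and 353 CPM (-1.09 ± 0.11, adjusted p = 2.9e-06). No value in one medium reached those of the other in these 3 genes. MVK (-1.06), LSS (-0.71), HMGCS1 (-0.65), which makes HMG-CoA, and FDFT1 (-0.53), squalene synthase, also fell in the sterol branch. In the fatty acid branch ACLY (-0.96), ACACA (-0.82), SCD (-0.70), FADS1 (-0.65) and ACSS2 (-0.47) fell.

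STARD4 and HSD17B7 moved against the other called sterol genes with siATF6. STARD4 rose from 25.4, 24.1 and 22.2 CPM to 56.8, 36.7 and 34.2 CPM (0.83 ± 0.30, adjusted p = 0.044) and HSD17B7 from 12.4, 10.1 and 10.1 CPM to 13.5, 15.3 and 14.2 CPM (0.40 ± 0.13, adjusted p = 0.027). The STARD4 call held in 1 and the HSD17B7 call in 2 of the 6 fits that left out 1 library. Of the genes that fell, FDFT1 and ACSS2 held in 2 and LSS and FADS1 in 3 of these fits. FADS2, ACAT2, FASN, MVK, HMGCS1, ACLY, ACACA and SCD held in all 6. The count of 14 became 9 without replicate 1 of 25 mM, 8 without glucose-free replicate 2 and 9 without glucose-free replicate 3, where 26.9%, 27.0% and 27.1% of all genes passed. With the replicate number as a block 18 passed, beside 42.3% of all genes, with IDI1 (-0.82), DHCR7 (-0.50), GPAM (-0.50) and ELOVL6 (-0.32) in addition.

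**Figure D3:**
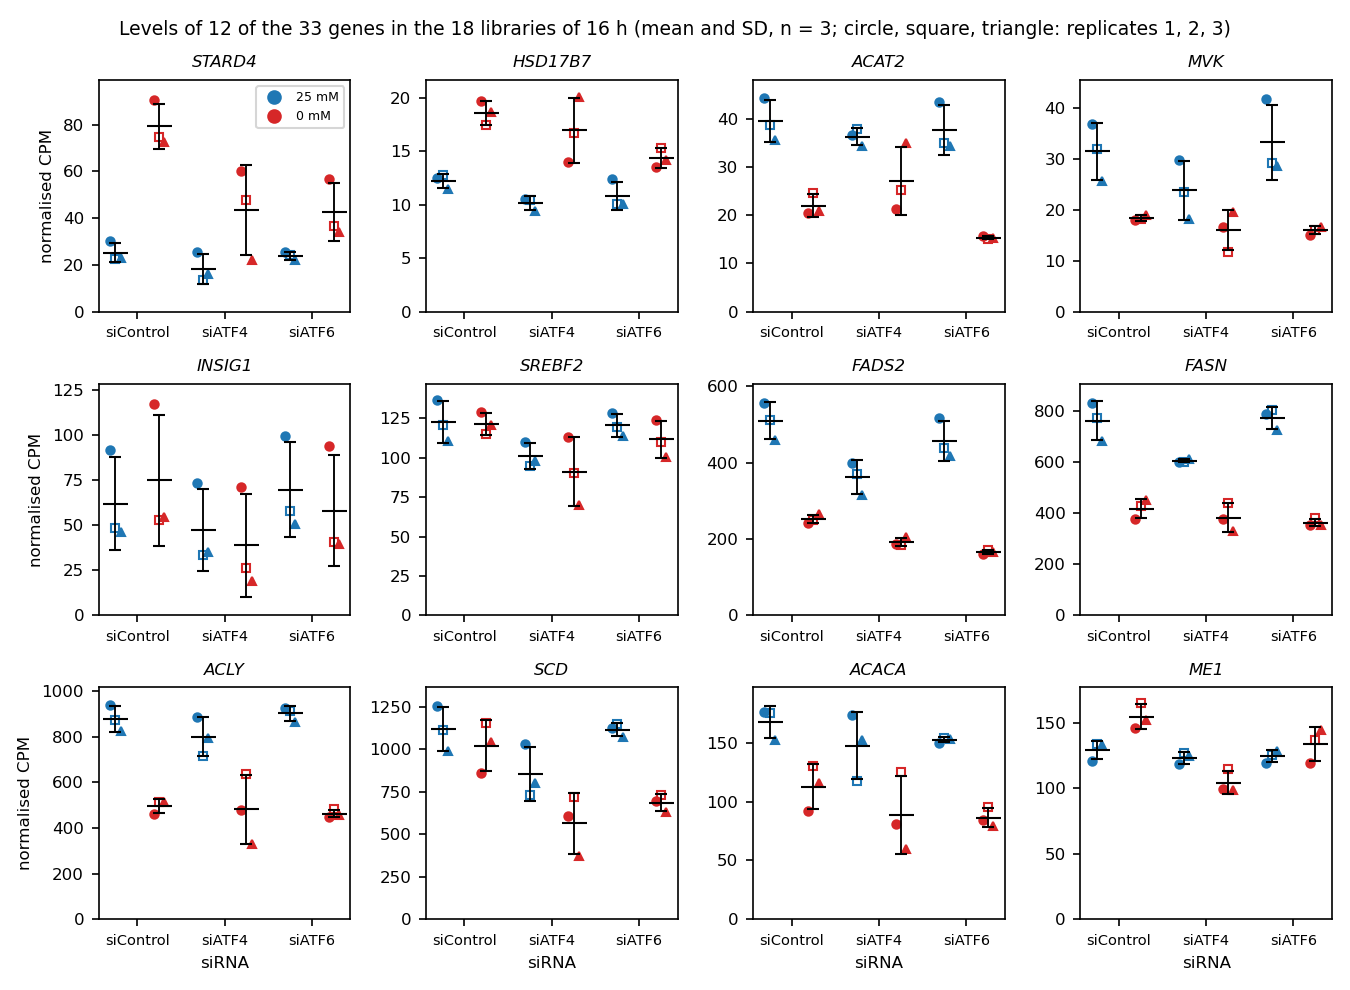
Normalised CPM (y axes, from 0) of 12 of the 33 genes in the 18 libraries of 16 h, by siRNA (x axis) and glucose (blue 25 mM, red 0 mM), with the mean and SD of 3 libraries; circle, open square and triangle are replicates 1, 2 and 3. FADS2 and FASN fall in all 3 arms without overlap, while the INSIG1 circles stand above the other libraries of their group in all 6 groups.

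Whether the response to glucose differed between arms was tested directly. For siATF4 against siControl 0 of the 33 genes passed the interaction test in edgeR (0.172% of all genes), 2 had an unadjusted p under 0.05 (9.16% of all genes) and DESeq2 called 1 (1.27%). That gene was ME1, at -0.50 ± 0.13 (adjusted p = 0.21 in edgeR), whose level went from 118, 127 and 125 CPM to 99.3, 114 and 98.9 CPM with siATF4. The other of the 2 was SCAP (0.34 ± 0.13, adjusted p = 0.49). For siATF6 0 of 33 passed in edgeR (0% of all genes), 1 had an unadjusted p under 0.05 (2.29% of all genes), FADS2 (-0.45 ± 0.16, adjusted p = 1), and DESeq2 called 0 (0.0998%). The larger number of calls with siATF4 and siATF6 is therefore not shown to be a different response.

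Silencing in 25 mM glucose at 16 h moved 0 of the 33 genes past the threshold in edgeR, for siATF4 (0.0444% of all genes) and siATF6 (0.749%). With siATF4, 31 of the 33 estimates were below 0, beside 49.5% of all genes. The medians were -0.27 over the sterol branch, -0.21 over the fatty acid branch and 0.0025 over all genes. The estimates come from the same libraries, so they are not independent. Unadjusted p was under 0.05 for 4 genes (FADS2, FASN, FDFT1, LSS), beside 6.93% of all genes. DESeq2 called 1, FADS2, beside 1.01% of all genes. FADS2 was 557, 512 and 460 CPM with siControl and 400, 371 and 314 CPM with siATF4, without overlap (-0.49 ± 0.11, adjusted p = 0.20). With siATF6, 17 of 33 estimates were below 0, beside 46.8% of all genes, and the medians were -0.01 and 0.00, beside 0.02 over all genes. Unadjusted p was under 0.05 for 0 genes, beside 10.9% of all genes, and DESeq2 called 0, beside 2.77%.

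In 0 mM glucose at 16 h, siATF4 lowered 6 of the 33 genes, 5 of the fatty acid and 1 of the sterol branch, and raised 0, beside 12.4% of all genes that passed in either direction. ME1 was 146, 165 and 152 CPM with siControl and 99.3, 114 and 98.9 CPM with siATF4 (-0.57 ± 0.09, adjusted p = 0.0025). SCD was 862, 1158 and 1045 CPM and 606, 721 and 369 CPM (-0.85 ± 0.20, adjusted p = 0.015). SC5D, a late sterol desaturase, was 32.9, 26.4 and 24.6 CPM and 20.1, 14.6 and 11.5 CPM (-0.86 ± 0.22, adjusted p = 0.022). In these 3 genes the groups did not overlap. ACSS2 (-0.52), ACSL3 (-0.50), which activates fatty acids to their CoA form, and FADS2 (-0.39) also fell.

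The call of ME1 held in each of the 6 fits that left out 1 library, and the count of 6 did not. It was 2, 2 and 1 without siControl replicates 1, 2 and 3, where 5.96%, 6.35% and 2.95% of all genes passed, 14 without siATF4 replicate 1, where 18.7% passed, and 3 (ME1, SCD, FADS2) without siATF4 replicate 3, where 4.96% of all genes passed. With siATF6 in 0 mM glucose 1 of the 33 genes passed, beside 4.02% of all genes: FADS2, at 242, 250 and 264 CPM with siControl and 162, 171 and 165 CPM with siATF6 (-0.60 ± 0.11, adjusted p = 0.0057). It passed in each of the 6 fits that left out 1 library, and 2 genes passed without siATF6 replicate 1 (4.83% of all genes). These comparisons share the siControl libraries with each other and the glucose-free libraries with those of glucose.

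At 16 h the spread within groups followed the replicate number in genes of both branches. Over the genes tested, 14 of 18 libraries also correlated best with their own number. The counts that follow were not made over all genes. The genes share the same libraries, and a difference between the branches was not tested. Replicate 1 was above the mean of replicates 2 and 3 in all 6 groups for 12 of 20 sterol genes and 4 of 13 fatty acid genes, and below it in all 6 for 0 and 2. The median difference of INSIG1 was 1.11 on the log2 scale, of IDI1 (isopentenyl diphosphate isomerase) 0.75 and of MSMO1 0.74. SREBF1 went the other way, with replicate 1 lower in all 6 groups (median -0.33). The standard error of INSIG1 for 0 against 25 mM glucose in siControl cells was 0.51, against 0.11 for FADS2.

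At 6 h, 0 of the 33 genes passed for 0 against 25 mM glucose in edgeR with siControl, siATF4 or siATF6 (0%, 0% and 0% of all genes), and DESeq2 called 0 in each. Unadjusted p was under 0.05 for 0, 2 (STARD4, HSD17B7) and 1 (MVK) of the genes, beside 0.986%, 3.79% and 0.806% of all genes. Estimates above 0 still outnumbered the rest in the sterol branch (17, 18 and 19 of 20 genes), while 50.2%, 50.5% and 50.2% of all genes were below 0. Sterol medians were 0.13, 0.17 and 0.13, beside -0.02, -0.05 and 0.07 in the fatty acid branch and -0.00 over all genes in each arm. The genes of an arm share its libraries, so these counts are not of independent estimates.

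In the siControl pair numbered 2 at 6 h, 16 of 20 sterol genes were lower in the 0 mM than in the 25 mM library. The pairs numbered 1 and 3 had 2 and 3 of 20 lower. Some of the 16 were near 0, such as ACAT2 and FDFT1 (log2 ratio -0.02 each). In SREBF2, FDPS and DHCR7 another number was below 0 too. These counts were not made over all genes. With siATF6 the pair numbered 2 had 5 of 20 lower, STARD4 and HSD17B7 among them, against 6 and 3, and with siATF4 it had 10, against 4 in the pair numbered 1. STARD4 in siControl cells was 18.5, 74.2 and 22.6 CPM in 25 mM and 89.4, 21.3 and 106 CPM in 0 mM glucose: the library labelled replicate 2 of 25 mM stood with the glucose-free libraries, and the library labelled replicate 2 of 0 mM with those of 25 mM. Whether the media of that pair were exchanged was not tested and the labels were kept, so the glucose counts at 6 h and the time comparisons include both libraries as labelled. The log2 ratio of 0 to 25 mM within a replicate number was 2.27, -1.80 and 2.23 with siControl and 1.32, -0.80 and 0.72 with siATF6, and 2.18 and 1.00 in the 2 numbers left with siATF4. HSD17B7 gave 0.84, -0.93 and 1.21 with siControl, 0.64, -0.21 and 0.67 with siATF6, and 1.01 and 0.44 with siATF4. FASN with siControl, at 442, 560 and 555 CPM in 25 mM and 476, 747 and 429 CPM in 0 mM glucose, showed no such split, and its groups overlap. By the sign of the siControl log2 ratio, ACSS2, ACACA and FADS1 did not set number 2 against both others either. The remaining fatty acid genes did, by small amounts in some. The ratios were -0.36, 0.27 and -0.16 for GPAM, 0.19, -0.20 and 0.27 for ELOVL5, and 0.03, -0.03 and 0.21 for SCD.

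**Figure D4:**
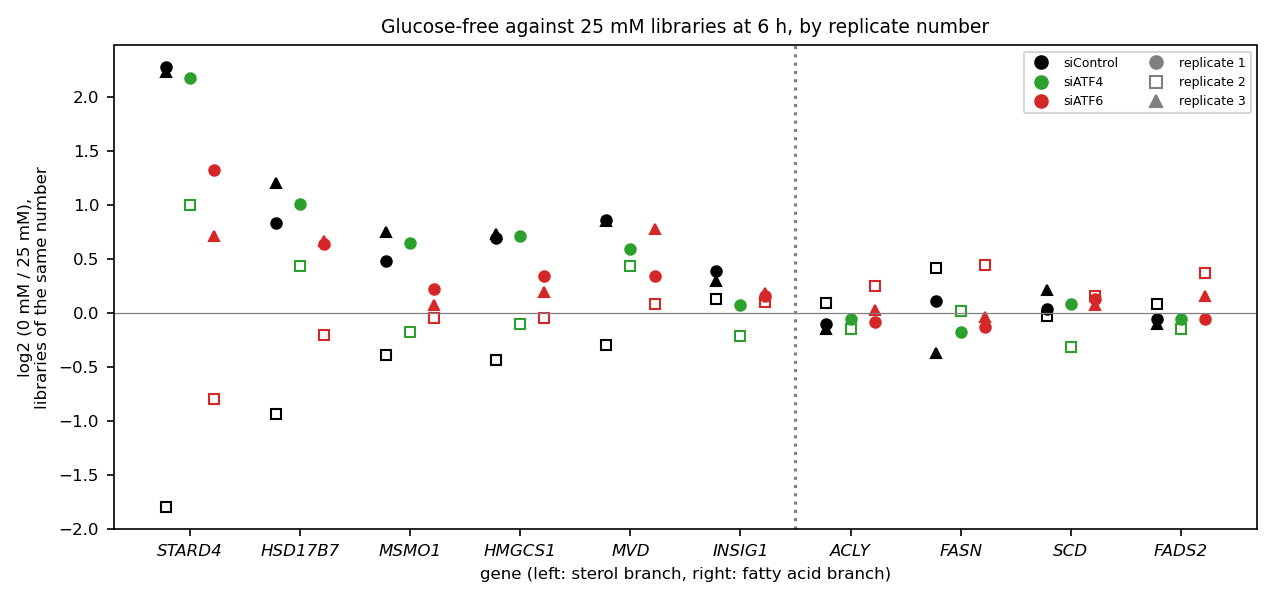
Log2 ratio of the 0 mM to the 25 mM library of the same replicate number at 6 h (y axis) for 10 of the 33 genes (x axis), by siRNA (colour) and number (marker). The open squares of replicate 2 lie below 0 for STARD4 and HSD17B7 with siControl and siATF6, where the numbers 1 and 3 lie above 0.

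Without the 6 h libraries numbered 2, sterol genes passed at 6 h and fatty acid genes did not. In siControl cells 3.92% of all genes passed in either direction (358 rose and 378 fell of 18799). Of the 20 sterol genes 4 rose, and of the 13 fatty acid genes 0 passed. The 4 were STARD4 (2.24 ± 0.19, adjusted p = 0.0012), HSD17B7 (1.02 ± 0.12, adjusted p = 0.0041), IDI1 (0.66 ± 0.11, adjusted p = 0.015) and MSMO1 (0.61 ± 0.09, adjusted p = 0.012). With siATF4, STARD4 (2.02), HSD17B7 (1.03) and MSMO1 (0.69) passed with positive estimates, beside 1.17% of all genes; 1 glucose-free library was left there, which the fit assumes to vary like the libraries of the other groups. With siATF6, STARD4 (1.02) and HSD17B7 (0.67) rose, beside 1.82% of all genes in either direction (199 rose and 144 fell). The libraries were left out because of what earlier results of these data showed, so these calls describe numbers 1 and 3 only.

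Silencing moved 0 of the 33 genes past the threshold in edgeR at 6 h without a block, and DESeq2 called 0 in each case. With siATF4, 0% of all genes passed in 25 mM and 0% in 0 mM glucose, and an unadjusted p was under 0.05 for 0 genes and for 1 (ELOVL6, an elongase), beside 4.11% and 5.27% of all genes. With siATF6, 0.496% and 0.311% of all genes passed, and an unadjusted p was under 0.05 for 3 genes (FADS2, SC5D, SREBF1) and 6 (ACACA, FDPS, IDI1, SC5D, SREBF1, SREBF2), as for 12.0% and 12.3% of all genes. SREBF1 was 306, 240 and 308 CPM with siControl and 409, 299 and 368 CPM with siATF6 in 25 mM glucose at 6 h, which overlap. In 0 mM glucose it was 265, 280 and 258 CPM and 339, 368 and 364 CPM, which do not. Within each replicate number SREBF1 was higher with siATF6 in both media. With the number as a block, 1 of the 33 genes, not identified here, passed for siATF6 in 0 mM glucose. That is near the background of 4.93% of all genes.

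Across times in siControl cells in 0 mM glucose, 1373 of 19030 genes were lower and 1182 higher at 16 h than at 6 h (13.4% in either direction). Of the 33 genes 3 passed, all lower at 16 h. These were FADS2 (-0.93 ± 0.11, adjusted p = 9.7e-07), ACAT2 (-0.78 ± 0.16, adjusted p = 0.0015) and GPAM (-0.56 ± 0.19, adjusted p = 0.043). GPAM lost its call in 5 of the 6 fits that left out 1 library (any but glucose-free replicate 1 of 6 h), and FADS2 and ACAT2 kept theirs. In 25 mM glucose 0 genes passed in edgeR, beside 0.273% of all genes; 5 had an unadjusted p under 0.05, all higher at 16 h, beside 9.06% of all genes. DESeq2 called 1 (1.35% of all genes), FASN (0.61 ± 0.17 and adjusted p = 0.14 in edgeR). Whether the 6 h and 16 h cultures were run together is not given in the labels.

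Genes around the 2 routes were read from 4 further lists of 45 genes, all tested. For 0 against 25 mM glucose in siControl cells at 16 h, where 14.6% of all genes rose and 14.5% fell, 1 of 12 other sterol genes rose and 4 fell. TMEM97 (a sterol-regulated membrane protein, 96.3 to 49.6 CPM, -0.96 ± 0.16) and EBP (sterol isomerase, 66.4 to 37.6 CPM, -0.82 ± 0.19) fell, and the median of the list was -0.24. Of 7 sterol efflux genes and liver X receptor targets 3 rose and 1 fell, with a median of 0.68. ABCG1 (3.80 to 8.92 CPM, 1.23 ± 0.30) and ABCA1 (24.9 to 79.3 CPM, 1.67 ± 0.49), which export cholesterol, rose, and LPCAT3, a phospholipid acyltransferase, fell (-0.44 ± 0.13).

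Of 10 genes of SREBP processing and turnover 3 rose and 1 fell, with a median of 0.28, in the same comparison (14.6% and 14.5% of all genes). INSIG2, which like INSIG1 retains SCAP, rose from 10.9 to 19.5 CPM (0.84 ± 0.13, adjusted p = 0.000154), and FAF2 rose (0.53 ± 0.11). The partners of 1 complex that degrades sterol-sensing proteins moved apart: ERLIN1 fell (-0.67 ± 0.10) and ERLIN2 rose from 54.6 to 79.4 CPM without overlap (0.54 ± 0.16, adjusted p = 0.016), ERLIN2 being named after its values were seen. Of 16 other fatty acid genes 1 rose and 5 fell, with a median of -0.21. SLC25A1, the mitochondrial citrate carrier that feeds ACLY, fell from 66.4 to 36.7 CPM (-0.86 ± 0.16), HACD3, an elongation dehydratase, fell (-0.77 ± 0.13), and MID1IP1, which activates acetyl-CoA carboxylase, rose from 95.3 to 157 CPM (0.72 ± 0.10).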

How the data were processed

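Poly(A)-selected, non-stranded paired-end libraries were trimmed, aligned and quantified with fastp, STAR and RSEM on GRCh38, per the submitters' processing notes; which annotation they used was not stated. The deposited table holds the authors' RSEM expected counts per gene, not normalised; these were rounded. edgeR 4.0.16 (R 4.3.3) with filterByExpr (minimum count 10, minimum total 15), TMM factors and the robust quasi-likelihood test gave log2 fold changes, standard errors (log2 fold change over the root of F) and p-values adjusted by Benjamini-Hochberg over all genes tested, called under 0.05. Fits used the 18 libraries of 16 h (18013 genes), 17 of 6 h (18355) or 35 across times (19030). Levels are CPM of the TMM-scaled library size. The fits were tested on simulated data. Alternatives were DESeq2 1.42.0, median-of-ratios factors, no filter, other sets of libraries, replicate blocks and leaving out each library. The 33 members, the lists and the rule for named genes (regulators, the 5 members per branch with the smallest p in siControl at 16 h, members moving against their branch, up to 3 genes per further list) were chosen with earlier results of these data known. Gene lengths are those deposited. SPRING1 stands in the table under its older symbol C12orf49. PCR duplicates were not separable, so counting error is a lower limit. 1 gene of the further lists is counted but not reported here by name. Same-numbered libraries were read as glucose pairs only where all 3 pairs of a comparison correlated over 0.1, from the data and not from the labels. Other counts with a replicate block are alternatives only. With siATF4 at 16 h not all 3 pairs correlated over 0.1, and for comparisons across siRNAs or times the rule was not applied.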

Additional observations from a re-analysis of the deposited data

How the results depend on the processing

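Counts below are of the 33 genes passing at an adjusted p under 0.05, and no direction of a called gene reversed in any alternative. With all 36 libraries in 1 fit, the failed library included, 0 against 25 mM glucose at 16 h gave 0 genes with siControl, 0 with siATF4 and 1 with siATF6, siATF4 and siATF6 against siControl in 0 mM gave 0 and 0, and time in 0 mM gave 0; over all genes the 3 glucose comparisons gave 531, 325 and 831 calls. The cause was not tested. With only the groups compared, glucose with siATF4 gave 1 (1225 calls over all genes), and siATF4 and siATF6 in 0 mM gave 0 and 4. DESeq2 gave 12 and 4 for these (22.8% and 9.19% of all genes), and 1 each for siATF4 in 25 mM at 16 h, the siATF4 interaction and time in 25 mM (1.01%, 1.27% and 1.35%). Without the low-count filter siATF4 in 0 mM gave 3. Without the 6 h libraries numbered 2, glucose at 6 h gave 4 and 2 with siControl and siATF6 (3.92% and 1.82% of all genes). Time in 25 mM then gave 1 (0.860%). Leaving out 1 library at a time gave 7 to 8, 6 to 15 and 8 to 14 for glucose at 16 h with siControl, siATF4 and siATF6, 1 to 14 and 1 to 2 for siATF4 and siATF6 in 0 mM, and 2 to 3 for time in 0 mM.

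The labels do not say what a replicate number marks. Glucose pairs of the same number correlated over 0.1 in 7 of 9 cases at 16 h (-0.36 to 0.55; all 3 with siControl and with siATF6, 1 of 3 with siATF4) and in 6 of 8 at 6 h (-0.01 to 0.41), and 14 of 18 and 17 of 17 libraries correlated best with their own number. With the replicate block, glucose at 16 h gave 16, 21 and 18 with siControl, siATF4 and siATF6 (37.4%, 38.0% and 42.3% of all genes), siATF4 and siATF6 in 0 mM gave 17 and 5 (22.6% and 10.2%), and siATF4 in 25 mM at 16 h, the siATF4 interaction, siATF6 in 0 mM at 6 h and time in 25 mM gave 1 each (0.211%, 0.794%, 4.93% and 1.22%). With 3 cultures a group, differences within the spread between cultures were not detectable.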
